A study of Mus musculus with 12 samples.

Results

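The proteasome subunit genes are the protein-coding genes whose symbols start with Psma, Psmb, Psmc or Psmd followed by a number, with the inducible subunits Psmb8, Psmb9 and Psmb10 left out. The rule found 36 genes among the 56748 listed. It uses no expression values, but it was chosen with earlier results of these data known. They were read in bulk liver of 16-week-old mice kept on normal chow, by poly(A)-selected RNA sequencing of 12 libraries. The wild-type (WT) mice were 129S1/SvImJ and the knockout (KO) mice were 129/Sv-Cyp2e1tm1Gonz/J, a line with a targeted allele of Cyp2e1, the liver cytochrome that oxidises ethanol and many small toxicants. The groups were female WT, female KO, male WT and male KO, with 3 biological replicates each. The WT and KO mice carry different strain names, so effects of the targeted allele and of other differences between the lines cannot be told apart.

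The proteasome is the protease that degrades ubiquitin-tagged proteins in the cytosol and nucleus. Its barrel-shaped 20S core is built of alpha rings, which gate the entry, and beta rings, which carry the proteolytic sites, and the 19S cap recognises, deubiquitinates, unfolds and threads substrates into it. Cells that lack proteasome capacity raise its subunit genes together through the transcription factor NRF1, encoded by Nfe2l1, whose precursor is deglycosylated by the product of Ngly1 and cleaved by that of Ddi2. In the liver the proteasome also degrades endoplasmic reticulum proteins that have been extracted into the cytosol, cytochromes among them.

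By role, the members are 8 genes of the 20S alpha ring, 8 of the 20S beta ring, 6 ATPases of the 19S base, 3 non-ATPase base subunits, 8 lid subunits, and 3 genes named as subunits (Psmd5, Psmd9 and Psmd10) whose products are chaperones of base assembly. Of the 36, 35 passed the filter on low counts. Psmb11, the thymus form of the beta5 subunit, had 0 counts in every library. Psma8, the testis form of alpha4, was at 1.06 to 2.67 CPM (counts scaled by library size). The total counts per library ran from 15167730 in male KO replicate 2 to 25082532 in female KO replicate 3, and the members took 0.235 to 0.445% of the counts. Cyp2e1 was at 6213 to 7076 CPM in female WT against 230.2 to 322.6 in female KO, and at 10370 to 11480 in male WT against 317.9 to 402.9 in male KO, so each library lay on the side its label gives. A label check on Xist and Ddx3y found no library against its labelled sex.

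NRF1 and its relative NRF2, encoded by Nfe2l2, bind the antioxidant response element. This motif was picked for display after the members' levels were seen. The 250 bases before the start site were read for 29 of the 36 members from RefSeq (GRCm38.p6), a build other than the mm39 of the counts. The element's core, searched as TGACNNNGC on both strands, was found in 5 of the 31 windows of these 29 genes (16.1%), against 10.2% of the 32851 windows of all genes. Those 5 windows are printed 5′ to 3′ along the gene, with the match in capitals, which in Psmc6 and Psmd12 is on the opposite strand. A match is only a run of letters and not a bound site.
Psmb5 (chr14:54617996-54618245, minus strand): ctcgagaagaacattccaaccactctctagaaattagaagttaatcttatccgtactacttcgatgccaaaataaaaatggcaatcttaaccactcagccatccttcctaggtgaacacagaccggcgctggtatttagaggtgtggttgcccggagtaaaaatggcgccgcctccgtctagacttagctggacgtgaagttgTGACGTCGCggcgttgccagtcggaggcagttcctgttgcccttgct
Psmb6 (chr11:70525107-70525356, plus strand): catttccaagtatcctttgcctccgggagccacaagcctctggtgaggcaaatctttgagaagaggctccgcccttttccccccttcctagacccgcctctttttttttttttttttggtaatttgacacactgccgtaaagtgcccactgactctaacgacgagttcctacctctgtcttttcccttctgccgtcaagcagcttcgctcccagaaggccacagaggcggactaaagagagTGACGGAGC
Psmc6 (chr14:45329574-45329823, plus strand): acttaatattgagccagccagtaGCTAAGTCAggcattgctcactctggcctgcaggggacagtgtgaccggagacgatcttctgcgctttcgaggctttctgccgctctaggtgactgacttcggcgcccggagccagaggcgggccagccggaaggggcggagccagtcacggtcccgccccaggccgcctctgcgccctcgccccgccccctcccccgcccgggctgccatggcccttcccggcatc
Psmd12 (chr11:107479278-107479527, plus strand): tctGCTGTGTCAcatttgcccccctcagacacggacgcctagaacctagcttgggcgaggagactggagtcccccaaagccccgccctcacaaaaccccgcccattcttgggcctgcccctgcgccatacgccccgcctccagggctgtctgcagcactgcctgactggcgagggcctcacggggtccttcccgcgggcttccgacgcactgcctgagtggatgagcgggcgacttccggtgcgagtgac
Psmd9 (chr5:123227940-123228189, plus strand): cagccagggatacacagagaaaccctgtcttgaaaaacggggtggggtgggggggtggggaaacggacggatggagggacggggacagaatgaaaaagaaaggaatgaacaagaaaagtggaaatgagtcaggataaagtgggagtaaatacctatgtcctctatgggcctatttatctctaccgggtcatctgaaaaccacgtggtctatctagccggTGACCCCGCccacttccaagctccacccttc
The matches end 38 bases before the start site in Psmb5, directly at it in Psmb6 and 22 bases before it in Psmd9, and lie at the far end of the window in Psmc6 and Psmd12. Read on its own strand, the match is TGACGTCGC in Psmb5, TGACGGAGC in Psmb6, TGACTTAGC in Psmc6, TGACACAGC in Psmd12 and TGACCCCGC in Psmd9. Psmb5 and Psmb6 encode catalytic subunits, Psmc6 an ATPase, Psmd12 a lid subunit and Psmd9 a chaperone. The share of 16.1% was not tested against the 10.2% of all windows. Whether the motif bears on the members' levels was not tested either. CCGGAAG and CCAAT were searched in the same windows, also on both strands. CCGGAAG, the core of ETS-family sites, was in 10 of the 31 windows (32.3%) against 6.91% of all windows, and CCAAT was in 12 (38.7%) against 33.8%. The ETS match was in Psma6, Psmc1, Psmc2, Psmc6, Psmd2, Psmd4, Psmd6, Psmd11 and Psmd12, and 2 of these 9 genes, Psmd2 and Psmd11, are among the members that did not pass the test in female KO liver below.

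Levels differed widely between members when counts were set per kilobase of the deposited gene length. As the mean over all 12 libraries, the beta-ring genes Psmb4 and Psmb6 stood at 114.4 and 102.5 CPM per kb and the alpha-ring gene Psma6 at 108.2 CPM per kb. The other alpha-ring genes lay at 63.2 (Psma7), 47.9 (Psma4), 47.5 (Psma5), 35.6 (Psma1), 24.3 (Psma2) and 24.1 CPM per kb (Psma3). The other beta-ring genes lay at 58.4 (Psmb5), 58.2 (Psmb2), 48.7 (Psmb3), 43.9 (Psmb1) and 26.5 CPM per kb (Psmb7). The core subunits enter the particle in equal numbers, while these RNA levels spanned from 24.1 to 114.4 CPM per kb. The ATPases ran from 18.9 (Psmc2) and 26.4 (Psmc6) over 40.7 (Psmc4), 50.2 (Psmc3) and 53.3 (Psmc1) to 59.5 CPM per kb (Psmc5). The base subunits were at 38.7 (Psmd2), 35.4 (Psmd4) and 7.12 CPM per kb (Psmd1). Lid genes were at 42.4 (Psmd8), 29.9 (Psmd6), 29.2 (Psmd7), 25.7 (Psmd13), 23.9 (Psmd12), 21.3 (Psmd3), 18.1 (Psmd14) and 10.5 CPM per kb (Psmd11), and the chaperones at 10.02 (Psmd10), 6.92 (Psmd9) and 4.09 CPM per kb (Psmd5). Gene length as deposited covers all annotated exons, so a gene with a long annotated exon set is set lower on this scale than its main transcript would be.

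In female liver, RNA of the 20S core was lower in KO than in WT in every gene expressed outside testis and thymus, and most 19S genes were lower as well. By edgeR's quasi-likelihood test, with Benjamini-Hochberg adjustment over all 14003 genes tested, 28 of the 35 tested members fell and 0 rose at an adjusted p under 0.05. Over all genes tested, 36.5% were called, 18.8% of them being lower and 17.7% higher as shares of the same total. The median log2 fold change was -0.88 for the members and 0.05 for all genes tested, and 32 of the 35 were negative, against 48% of all genes. An unadjusted p under 0.05 with a lower KO level was found for 29 members, against 24% of all genes. All 3 KO libraries lay below all 3 WT libraries for 29 members, which held for 27.1% of all genes. Each call needed both female replicates 2: without female WT replicate 2 or without female KO replicate 2, 0 members passed, with smallest adjusted p-values of 0.0554 and 0.061, while 27 had an unadjusted p under 0.05 and 32 of 35 were negative. Over all genes only 5 and 4 calls were left in those fits.

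**Figure D1:**
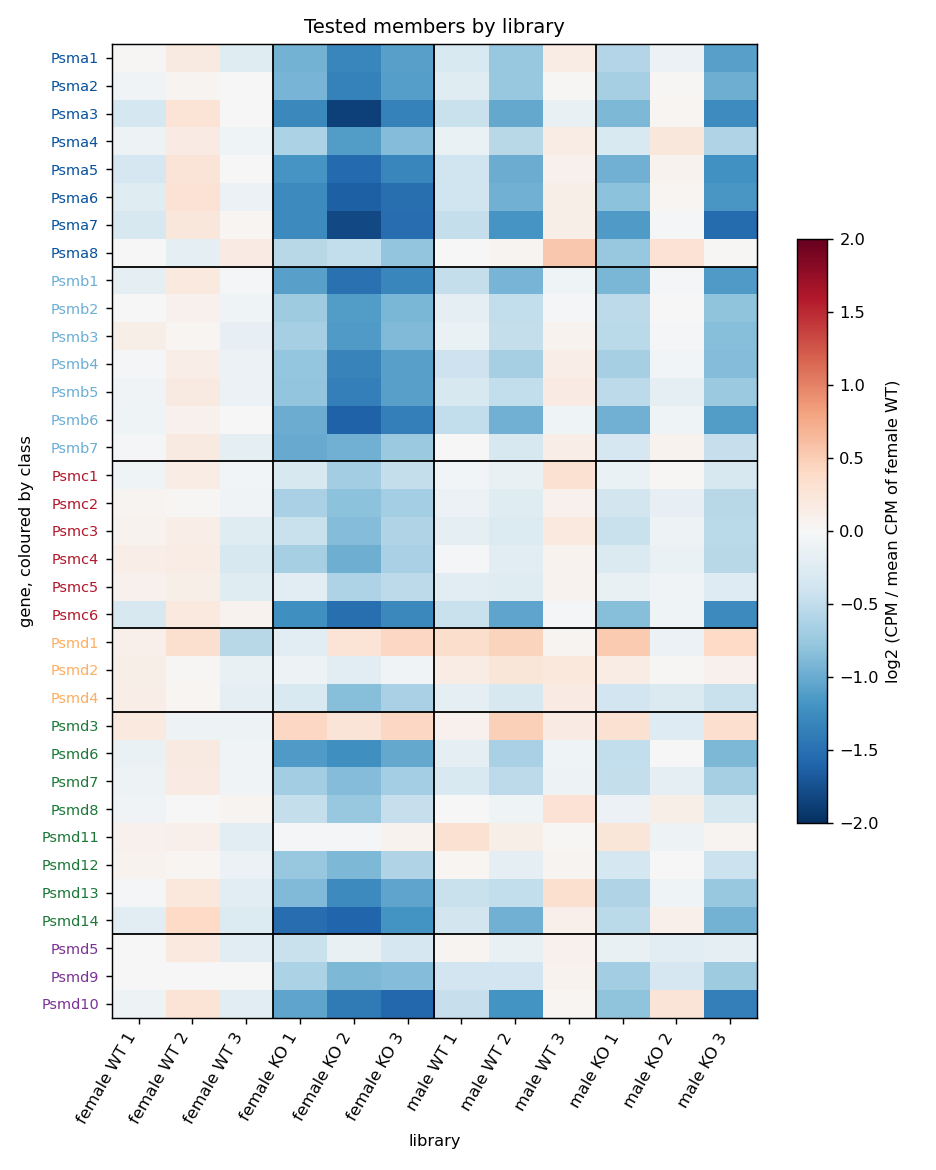
Each cell is the log2 ratio of a library's CPM to the mean CPM of the 3 female WT libraries, for the 35 tested members (vertical axis, coloured by class) in the 12 libraries (horizontal axis). The female KO columns are low for nearly all core genes, and male WT replicate 2, male KO replicate 1 and male KO replicate 3 are low for the same block, while Psmd1, Psmd2, Psmd3 and Psmd11 do not follow it.

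The alpha ring opens and closes the channel into the core, and 7 of its 8 genes fell in female KO liver, by log2 changes from -0.86 (Psma4) to -1.52 (Psma7). Psma6, the alpha1 subunit, was at 159.9, 231.9 and 174.6 CPM in female WT and at 78.17, 61.21 and 66.46 CPM in female KO. Every KO library lay below every WT library. Its log2 fold change was -1.46 (SE 0.32, adjusted p = 0.014). Psma3, the alpha7 subunit, was at 107.8, 166.7 and 138.1 CPM in WT and at 56.25, 37.83 and 53.92 CPM in KO, again without overlap. Its log2 fold change was -1.48 (SE 0.33, adjusted p = 0.014). The other called alpha genes were Psma7, Psma5 (-1.34), Psma2 (-1.11) and Psma1 (-1.10). Psma8, the testis form, was at 1.59 to 2.06 CPM in WT and 1.064 to 1.296 CPM in KO, without overlap, and its log2 difference of -0.61 did not pass (adjusted p = 0.147).

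The 3 proteolytic activities sit in the beta ring, where all 7 tested genes fell. Psmb5, the chymotrypsin-like subunit and the main target of proteasome inhibitor drugs, was at 64.55, 77.16 and 62.4 CPM in female WT and at 39.35, 26.3 and 32.2 CPM in female KO. Psmb6, the caspase-like subunit, was at 261.4, 294.6 and 275.5 CPM in WT and at 139.9, 90.24 and 107.4 CPM in KO. Psmb7, the trypsin-like subunit, was at 106.4, 122.1 and 95.78 CPM in WT and at 53.67, 55.66 and 64.59 CPM in KO. In each of the 3 genes every KO library lay below every WT library. The log2 fold changes were -1.06 for Psmb5 (SE 0.22, adjusted p = 0.0139), -1.30 for Psmb6 (SE 0.29, adjusted p = 0.014) and -0.90 for Psmb7 (SE 0.19, adjusted p = 0.0139), so that the KO levels were lower by factors of 2.09, 2.46 and 1.86. These sizes depend on how gene length is treated: Psmb5 was at -0.185 (adjusted p = 0.357) with each library's gene length trend removed, and Psmb7 at -0.162 (adjusted p = 0.384) with its length and GC trends removed. With the slope on gene length as a covariate none of the 3 passed, at -0.28, -0.13 and -0.39. The structural beta genes Psmb1 (-1.29), Psmb4 (-1.05), Psmb2 (-0.90) and Psmb3 (-0.88) fell too, with adjusted p-values no larger than 0.015.

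The 6 ATPases form the ring that unfolds substrates, and 5 of them fell. Psmc6 (Rpt4) was at 107.1, 153.1 and 140.4 CPM in female WT and at 56.92, 47.09 and 54.43 CPM in female KO. Psmc2 (Rpt1) was at 118.7, 116.1 and 108.3 CPM in WT and at 73.23, 64.64 and 71.52 CPM in KO. The groups did not overlap in either gene, and the fall of Psmc6 was the largest of the 5. The log2 fold change was -1.34 for Psmc6 (SE 0.31, adjusted p = 0.014) and -0.71 for Psmc2 (SE 0.16, adjusted p = 0.014). Psmc4 (-0.76), Psmc3 (-0.62) and Psmc1 (-0.49) also passed. Psmc5 (Rpt6) was at 79.44 to 101.9 CPM in WT and 61.17 to 79.68 CPM in KO, ranges that touch, and its -0.45 did not pass (adjusted p = 0.057). It did pass with DESeq2, with the 6 female libraries alone, and without female KO replicate 1 or without male KO replicate 2.

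Of the 3 non-ATPase base subunits, 1 fell. Psmd4 (Rpn10), a ubiquitin receptor, was at 128.6, 121.1 and 102.8 CPM in female WT and at 95.38, 65.43 and 74.82 CPM in female KO, and fell by 0.58 on the log2 scale (SE 0.19, adjusted p = 0.0303). The scaffold subunit Psmd1 (Rpn2) was at 48.2, 56.44 and 30.62 CPM in WT and at 38.73, 54.27 and 60.23 CPM in KO. The scaffold subunit Psmd2 (Rpn1) was at 163.7, 154.3 and 136.6 CPM in WT and at 141.5, 129.1 and 144.7 CPM in KO. Both scaffolds overlapped between the groups. Psmd1 differed by 0.18 (SE 0.25, 95% interval -0.36 to 0.72, adjusted p = 0.59) and Psmd2 by -0.13 (SE 0.14, 95% interval -0.44 to 0.18, adjusted p = 0.488).

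The lid removes ubiquitin chains, and 6 of its 8 genes fell. Psmd14 (Rpn11), the deubiquitinase itself, was at 60.06, 91.83 and 57.57 CPM in female WT and at 24.32, 23.34 and 30.55 CPM in female KO. Psmd6 (Rpn7) was at 101, 125.9 and 105.1 CPM in WT and at 50.47, 47.41 and 54.5 CPM in KO. Neither overlapped. Psmd14 changed by -1.42 on the log2 scale (SE 0.31, adjusted p = 0.014) and Psmd6 by -1.12 (SE 0.23, adjusted p = 0.0139), the smallest unadjusted p of all members at 0.000257. Psmd13 (-1.06), Psmd12 (-0.75), Psmd7 (-0.74) and Psmd8 (-0.56) passed as well. Psmd13 is the member nearest to the targeted locus, starting 107 kb past the end of Cyp2e1 on chromosome 7 in the deposited coordinates. Psmd3 (Rpn3) ran the other way, at 105.2, 85.71 and 85.56 CPM in WT and 122.2, 110 and 122.3 CPM in KO: the groups did not overlap, as held for 27.6% of all genes in this direction, but its 0.36 (SE 0.19) did not pass (adjusted p = 0.15). Psmd11 (Rpn6) was at 56.09 to 69 CPM in WT and 62.69 to 67.56 CPM in KO, a log2 difference of 0.0008 with a 95% interval from -0.35 to 0.35 (adjusted p = 0.998).

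The chaperones that assemble the base are not part of the finished particle. Psmd9 was at 64.92, 63.77 and 64.65 CPM in female WT and at 41.44, 34.73 and 35.47 CPM in female KO. Psmd10, known as gankyrin, was at 19.28, 25 and 17.75 CPM in WT and at 9.916, 7.733 and 6.932 CPM in KO. Both were lower in every KO library than in any WT library, with log2 fold changes of -0.79 (SE 0.18, adjusted p = 0.014) and -1.34 (SE 0.38, adjusted p = 0.02). With the length slope of each library in the model, a measure of how its levels run with gene length, Psmd10 was at 0.23 and did not pass. Psmd5 was at 27.47 to 36.73 CPM in WT and 23.57 to 28.94 CPM in KO, and its -0.31 did not pass (adjusted p = 0.151).

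**Figure D2:**
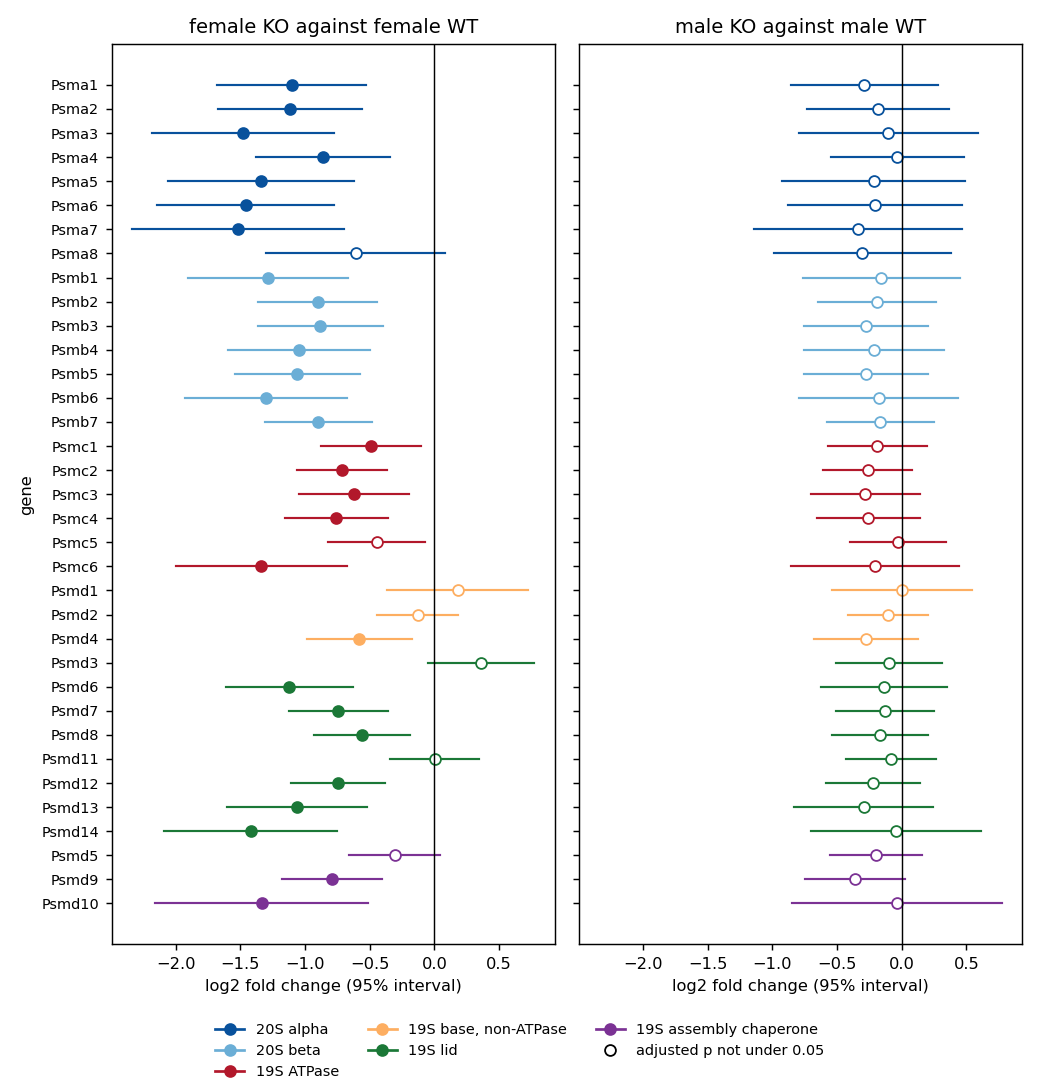
Log2 fold change of KO against WT with its 95% interval for each tested member (vertical axis, coloured by class), in females on the left and males on the right. Filled points passed an adjusted p under 0.05: 28 of 35 on the left and 0 on the right, where 34 of 35 points still lie below 0.

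In male liver the comparison of KO with WT gave no call among the members. By edgeR 0 of 35 passed, 0 had an unadjusted p under 0.05 and DESeq2 also called 0, in a contrast where 0.0571% of all genes were called and 4.84% had an unadjusted p under 0.05. The adjusted p was 1 for all members. Log2 differences were small and mostly negative, at 34 of 35 with a median of -0.19, where 50.5% of all genes were negative and their median was -0.003. The count of negative members is not stable: it was 22 without male WT replicate 3 and 23 without male KO replicate 3, where the median was -0.04 and -0.06, while without male KO replicate 2 the median was -0.42.

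The catalytic subunits show the male spread. Psmb5 was at 54.56, 48.58 and 76.2 CPM in male WT and 47.22, 60.38 and 40.6 CPM in male KO. Psmb6 was at 197.5, 142.5 and 261 CPM in WT and 142.3, 262.4 and 127.1 CPM in KO. Psmb7 was at 107.2, 86.27 and 118 CPM in WT and 86.03, 113.8 and 78.26 CPM in KO. In all 3 genes male WT replicate 2 was low within WT and male KO replicate 2 was high within KO, and the groups overlapped. The log2 differences were -0.28 (95% interval -0.75 to 0.20), -0.18 (-0.79 to 0.44) and -0.16 (-0.57 to 0.25). The smallest unadjusted p among the members was 0.0655, for the chaperone Psmd9 (-0.36, SE 0.18). Beside the catalytic genes, those with the smallest p in their classes were Psmc2 (-0.26) and Psmc3 (-0.28), Psmd4 (-0.27), Psmd12 (-0.22) and Psmd13 (-0.29), Psmb3 (-0.27), and Psma1 (-0.29) and Psma8 (-0.30), none past the threshold before or after adjustment. Psmd2 was at -0.10. Psmd5 was the one member whose male groups did not overlap, at 29.02 to 33.98 CPM in WT and 27.29 to 28.87 CPM in KO (log2 difference -0.20), as 4.52% of all genes were in this direction. Psmd1 was the one member on the positive side, at 0.003.

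The mean of the female and male KO effects fell for 24 of 35 members and rose for 0, against 7.29% of all genes lower and 15.1% called in either direction. Of the 35, 33 were negative, as were 48.3% of all genes. By class the 24 were 6 of 8 alpha genes, 7 of 7 tested beta genes, 4 of 6 ATPases, 1 of 3 base subunits, 5 of 8 lid genes and 1 of 3 chaperones. Psmd9 had the smallest p (log2 -0.58, SE 0.13, adjusted p = 0.0296), followed by Psmc2 (-0.49, SE 0.11, adjusted p = 0.0317) and Psmb5 (-0.67, SE 0.16, adjusted p = 0.0323). In their classes Psmd12 (-0.48) and Psmd6 (-0.63), Psmb7 (-0.53), Psmc4 (-0.51), Psma6 (-0.83) and Psma1 (-0.70), and Psmd4 (-0.43) came next and passed, with adjusted p-values from 0.0338 to 0.0476. Psmd10 (-0.69, adjusted p = 0.0801) and Psmd2 (-0.12, adjusted p = 0.399) did not pass. Psmd3 (0.13) and Psmd1 (0.09) were positive and did not pass. The count of 24 was 16 with each library's gene length trend removed, 13 with its coding length trend removed, 8 with its length and GC trends removed and 0 with its length slope in the model. It also depends on single libraries: it was 0 without female WT replicate 1 or 2, female KO replicate 2 or 3, male WT replicate 1 or 3, or male KO replicate 1 or 3, 2 without female KO replicate 1 and 7 without female WT replicate 3, and 28 without male WT replicate 2 or male KO replicate 2. The shares of all genes called in these other fits are not given here.

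Whether the KO effect differed between the sexes was tested as an interaction. By edgeR 0 of 35 members passed and DESeq2 also called 0, as 0% of all genes passed in edgeR. An unadjusted p under 0.05 was found for 20 members, all with the male effect less negative, where 22.5% of all genes had one, 12.8% in this direction. Psmd14 (difference 1.37, SE 0.43), Psmd6 (0.99, SE 0.32) and Psma3 (1.38, SE 0.46) had the smallest p-values, each with an adjusted p of 0.204. Psma6 (1.25), Psmb1 (1.13), Psmb6 (1.12), Psmc6 (1.13) and Psmd10 (1.3) were next in their classes, while Psmc2 (0.45), Psmd9 (0.43) and Psmd4 (0.31) differed less. Psmd3 (-0.46), Psmd1 (-0.18) and Psmd11 (-0.08) had the other sign. The female decrease is therefore not shown to be larger than the male one. Without the filter on low counts 9 members passed in this test. The share of all genes that passed in that unfiltered fit is not given here, so the 9 cannot be set against it.

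Between the sexes within a genotype, no member differed by edgeR. In WT mice 0 of 35 passed and 0 had an unadjusted p under 0.05, where 4.49% of all genes were called and 22% had an unadjusted p under 0.05, and DESeq2 called 0. Psmd7 (male minus female -0.30, adjusted p = 0.329) and Psmb6 (-0.47, adjusted p = 0.338) had the smallest p-values, and 27 of 35 were lower in males, as were 50.4% of all genes. Only 3 of 35 were lower in males with the slope on gene length as a covariate, and 16 of 35 with the length and GC trends of each library removed. The median was -0.16, and it was -0.325 without male WT replicate 3 and -0.05 without male WT replicate 2. Psmd1 (0.29), Psmd3 (0.25) and Psmd2 (0.20) were higher in males and did not pass. In KO mice, a comparison that shares the female KO libraries with the female one above, 0 of 35 passed (5.4% of all genes) and 20 had an unadjusted p under 0.05 with a higher male level (12.9% of all genes). The difference was positive for 34 of 35, with a median of 0.52, where 52.6% of all genes were negative. Psmd3 was the exception (-0.21). Psmb7 (0.68, SE 0.19, adjusted p = 0.0592) and Psmd14 (1.03, SE 0.31, adjusted p = 0.075) came nearest, followed by Psmd6 (0.70), Psma6 (0.90) and Psma4 (0.68). The groups did not overlap for 15 members, all higher in males, as held for 14% of all genes in that direction. DESeq2 called 4 members here, namely Psmb7, Psmd6, Psmd12 and Psmd14. By edgeR 4 passed without male KO replicate 3 (Psma6, Psmb7, Psmd6 and Psmd14), 2 without male WT replicate 2 (Psmb7 and Psmd14) and 1 without male WT replicate 3 (Psmd14). For DESeq2 and for these edgeR fits the shares of all genes called are not given here.

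Summed over genes, core and cap RNA were both lower in every female KO library than in any female WT library. The 15 tested 20S genes together were at 2175.1, 2666.9 and 2263.7 CPM in female WT, 1202.6, 875.7 and 1038.5 CPM in female KO, 1853, 1365.3 and 2454 CPM in male WT and 1410, 2351.4 and 1167.7 CPM in male KO. The 17 genes of the 19S base and lid were at 1784.8, 1927.5 and 1616.2 CPM in female WT, 1274, 1089.2 and 1253.3 CPM in female KO, 1654.8, 1533.8 and 1948.1 CPM in male WT and 1510.7, 1692.1 and 1355.6 CPM in male KO. Female KO was the one group whose 3 libraries all had a higher CPM sum for the 19S than for the 20S genes. These sums are not set per kilobase, so they do not compare transcript numbers between core and cap. The ratio of the sums was 1.33 ± 0.10 (SD, n = 3) in female WT, 0.86 ± 0.07 in female KO, 1.09 ± 0.19 in male WT and 1.06 ± 0.29 in male KO. In the males the ratio split each group, with 1.39 in male KO replicate 2 against 0.933 and 0.861 in the other male KO libraries. No test was made on these sums or ratios. The libraries with the most negative slopes on gene length, given below, were also those with the highest ratios. The part of length in the ratio was not tested. The 5 listed proteasome pseudogenes held 952 counts, 0.125% of the members' counts, so reads assigned to such copies are few.

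**Figure D3:**
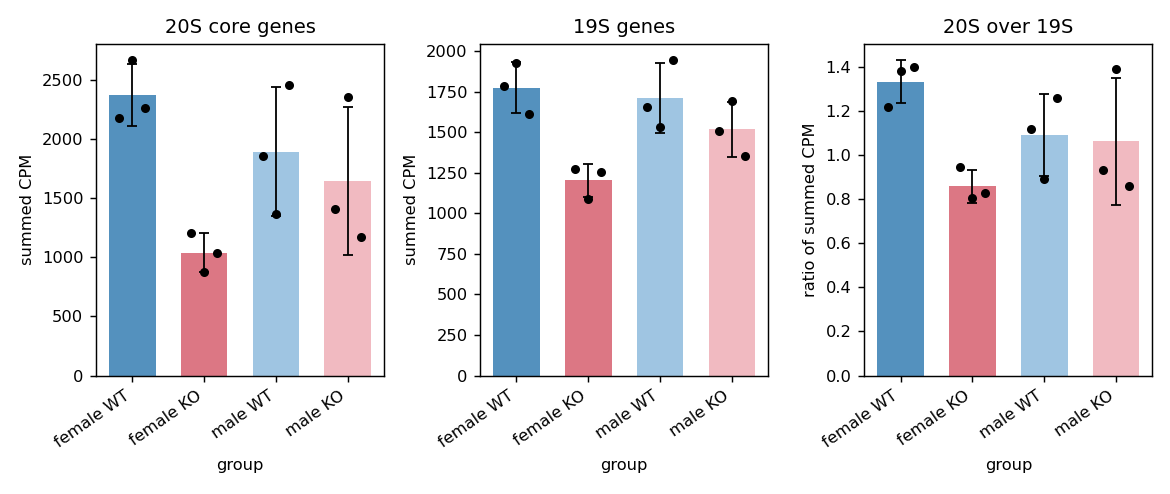
Summed CPM of the 20S genes (left), of the 19S base and lid genes (middle) and their ratio (right) in the 4 groups; bars are means, error bars SD and points the 3 libraries of each group. Female KO lies below female WT without overlap in all 3 panels (ratio 0.86 against 1.33), and the male groups overlap. The sums are not set per kilobase, and the libraries with the most negative slopes on gene length had the highest ratios.

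Members of the core moved together from library to library within groups. The deviations of log2 CPM from the group mean, over the 12 libraries, had a median Pearson r of 0.943 over the 91 pairs of 20S genes (Psma8 left out; lowest 0.712), of 0.847 over the 15 ATPase pairs and of 0.85 over the 84 pairs between core and ATPases. The core and the lid had a median of 0.855, and the core and the non-ATPase base subunits one of -0.045. With the mean of the other core genes, the r was -0.748 for Psmd3, -0.49 for Psmd1, -0.297 for Psmd11 and -0.09 for Psmd2. These 4 are among the 7 tested members that did not pass in female KO liver. All these pairs share the libraries and their depth and scaling, so the r describes these 12 libraries only. Within groups the libraries also differ in their slope on gene length, given below. It ran from -0.1552 to 0.1106 in male WT and from -0.1667 to 0.1686 in male KO. The part of this slope in the r was not tested.

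In females the change also went with the coding length of the gene. Coding lengths came from GENCODE M21. The 18 members with a coding length under 1000 bases, which are the 14 core genes without Psma8 and Psmd7, Psmd9, Psmd10 and Psmd14, all fell, with a median of -1.11, where the 3884 tested genes of that length had a median of -0.51 and 39.6% of them were called lower. Of the 14 members from 1000 to 1600 bases, 10 fell and the median was -0.60, where 3351 genes had a median of 0.04 and 15.8% called lower. Psmd1 and Psmd2, the 2 members of 1600 bases or more, did not pass, where 5008 genes had a median of 0.53 and 3.97% called lower. Over 34 members (Psma8 left out) the Pearson r of the female log2 fold change with log2 coding length was 0.747, and over 12243 protein-coding genes it was 0.538. With log2 gene length the r was 0.449 over the members and 0.436 over those genes. In each length class the members' median lay below that of all genes.

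The libraries themselves differ in such a trend. For each library, the deviation of log2 CPM from the mean of the 12 libraries was regressed on log2 gene length over 9366 genes, and a negative slope means relatively more RNA of short genes. The slope was -0.1432, -0.229 and -0.1994 in female WT and 0.0845, 0.2875 and 0.1883 in female KO, with no overlap. It was -0.0297, 0.1106 and -0.1552 in male WT and 0.0836, -0.1667 and 0.1686 in male KO. The 6 libraries with the most negative slopes (3 female WT, male WT replicates 1 and 3, male KO replicate 2) were the 6 with the highest 20S sums. They were also the 6 with the highest ratios of the 20S to the 19S sum. When a smooth trend on gene length was taken out of each library, 22 members were called in females, 21 of them among the 28, and the median was -0.59 (all genes 0.09). With a trend on coding length taken out the count was 24, 23 of them among the 28, and the median was -0.68. With trends on gene length and GC content it was 15 with a median of -0.43. Of these 15 calls, 14 were among the 28. The called members lost there were Psma6 (-0.40), Psmc2 (-0.31), Psmd10 (-0.02), Psma1, Psma2, Psma4, Psma5, Psmb2, Psmb3, Psmb7, Psmc1, Psmc4, Psmd7 and Psmd12. Lost with the gene length trend removed were Psmd4 (-0.375), Psmd10 (-0.70), Psmb2, Psmb5, Psmc1, Psmc3 and Psmc4. Lost with the coding length trend removed were Psmd4 (-0.45), Psmd9 (-0.32), Psmb3, Psmc1 and Psmd8. Psmd2 passed in that last fit (-0.685, adjusted p = 0.0175), and Psmd3 was at -0.195 with length and GC trends removed. With the slope of each library as a covariate, 0 members passed, 30 of 35 were negative and the median was -0.14 (all genes -0.02). Psmd1 (-0.47), Psmd3 (-0.115) and Psmd11 (-0.16), positive without the covariate, were among those 30. The shares of all genes called in these length fits are not given here, so the counts describe the members only. How far length or RNA quality accounts for the female difference was not tested further than by these fits.

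**Figure D4:**
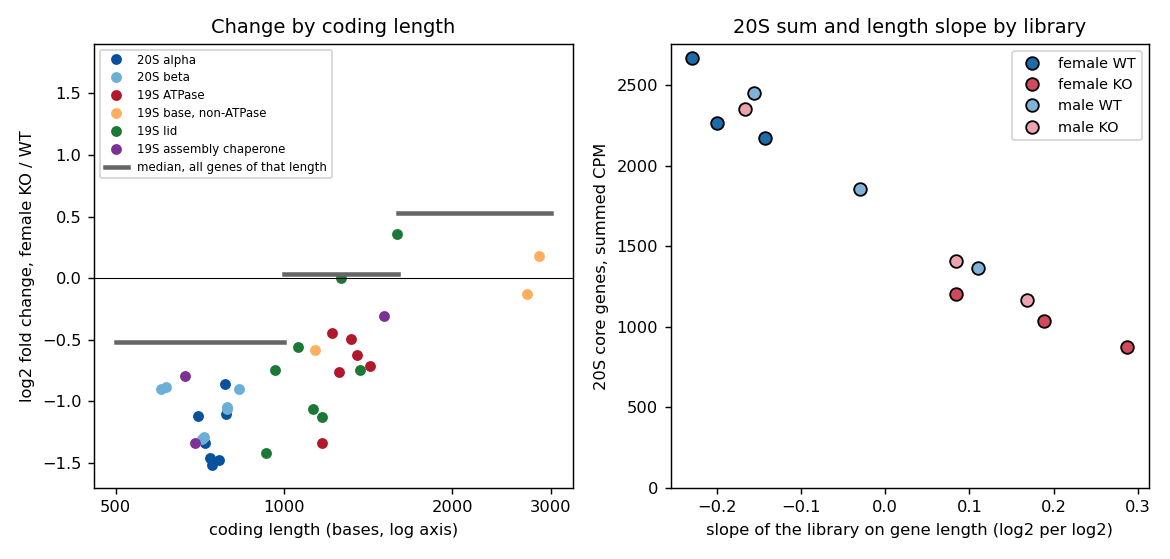
Left: log2 fold change in females against coding length (log axis) for 34 members, with grey lines at the median of all protein-coding genes tested under 1000, from 1000 to 1600, and from 1600 bases. Right: summed CPM of the 20S genes against the slope on gene length for the 12 libraries, coloured by group; the 6 libraries with the most negative slopes have the 6 highest sums.

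Some markers of other liver cells also changed in the female comparison, in which 17.7% of all genes rose and 18.8% fell. Of 8 Kupffer cell and macrophage markers 4 rose in female KO liver (Csf1r, Cd5l, Marco and Cd68) and 0 fell, and their summed level was 118.7 to 174.1 CPM in female WT, 169.5 to 199.9 CPM in female KO, 93.1 to 144.4 CPM in male WT and 117.3 to 143.9 CPM in male KO. Of 7 sinusoidal endothelium markers 3 rose (Cdh5, Stab1 and Stab2), with sums of 132.4 to 160.6 CPM in female WT, 183.7 to 231.9 CPM in female KO, 124.1 to 138.9 CPM in male WT and 117.9 to 177.9 CPM in male KO. Of 8 hepatocyte markers 1 rose (Apob), and sums overlapped, at 81891.8 to 110905.7 CPM in female WT and 96578.7 to 97711.9 CPM in female KO. Of 7 stellate cell markers 2 rose (Pdgfrb and Reln) and 1 fell (Dcn), and of 5 cholangiocyte markers 1 rose (Sox9) and 2 fell (Spp1 and Krt7). In males 0 genes of these lists passed by edgeR. The summed lymphocyte and neutrophil markers were at 5.2 to 12.9 CPM in female WT and 6.7 to 18.2 CPM in female KO, ranges that overlap, and Cd3e, Cd3g and S100a8 were at 0 in 1 or more libraries. The part of cell composition in the members' difference was not tested, and in bulk tissue fewer cells of a type and less RNA per cell cannot be told apart.

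The inducible subunits replace the catalytic ones in the immunoproteasome, which immune cells and interferon-treated cells make. Psmb8 was at 29.72, 43.11 and 38.53 CPM in female WT and 36.37, 16.21 and 21.35 CPM in female KO. Female KO replicate 1 was the highest of its group for Psmb9 and Psmb10 as well, and the groups overlapped for all 3 genes. The summed level was 132.4 to 161.7 CPM in female WT and 159, 65.7 and 91.7 CPM in the 3 female KO libraries, and female KO replicate 1 also had the highest lymphocyte and neutrophil sum (18.2 CPM). By edgeR 0 of 3 passed in females and 0 had an unadjusted p under 0.05, and DESeq2 also called 0, with log2 differences of -0.59 for Psmb8 (adjusted p = 0.164), -0.70 for Psmb9 (0.217) and -0.35 for Psmb10 (0.32).

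Genes whose products build the core particle fell as well in females. For all counts of female calls in this paragraph, 18.8% of all genes fell and 17.7% rose. Of the 5 dedicated 20S assembly chaperones 4 fell and 0 rose. Pomp, the maturation factor that is consumed as the beta subunits are processed, was at 189.4, 238.9 and 212.6 CPM in female WT and 123.7, 72.51 and 90.34 CPM in female KO (log2 -1.16, SE 0.29, adjusted p = 0.0147). Psmg3 was at 18.57, 18.94 and 20.13 CPM in WT and 10.8, 8.427 and 7.886 CPM in KO (-1.09, SE 0.26, adjusted p = 0.0143). Every KO library was below every WT library in both genes. Psmg1 (-0.60) fell as well, and Psmg4 (-1.27, adjusted p = 0.0409), while Psmg2 (-0.44, adjusted p = 0.128) did not pass. In the mean KO effect, 2 of the 5 fell, Psmg3 (-0.68) and Pomp (-0.72), as did 7.29% of all genes. Of the 6 other 19S subunits and bound enzymes 3 fell, namely Sem1 (-0.98), a small lid subunit, and the deubiquitinases Usp14 (-0.50) and Uchl5 (-0.57), and 0 rose. Of the 5 activators and inhibitors Psme1 fell (-0.66, adjusted p = 0.0275), and Psme2 (-1.002, adjusted p = 0.0561) and the inhibitor Psmf1 (0.52, adjusted p = 0.0689) did not pass. With the length slope of each library in the model Pomp (0.01), Psmg1 (0.06), Sem1 (0.06), Uchl5 (0.03) and Psme1 (0.03) turned positive and none passed. Psmg1 was also positive with the gene length trend removed (0.07) and with the length and GC trends removed (0.1), where Uchl5 was at 0.37, and Sem1 was at 0.195 with the coding length trend removed; none of these passed.

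Regulators of proteasome genes were mixed in direction. Of the 6 on the list 3 rose and 1 fell in female KO liver, where 17.7% of all genes rose and 18.8% fell. Ddi2, the protease that cleaves the NRF1 precursor, was at 60.77, 64.54 and 49.98 CPM in female WT and 115.6, 143.3 and 137.8 CPM in female KO (log2 1.18, SE 0.27, adjusted p = 0.0142). Nfe2l1 was at 61.76, 48.4 and 48.76 CPM in WT and 96.8, 107.1 and 100.8 CPM in KO (0.94, SE 0.28, adjusted p = 0.0235). Neither overlapped. With the length slope in the model Nfe2l1 was at -0.16 and Ddi2 at 0.12, neither past the threshold, and with a trend on coding length removed Nfe2l1 was at 0.55 (adjusted p = 0.0565). Ngly1, the glycanase that acts on the same precursor, was at 39.27, 43.17 and 43.23 CPM in WT and 26.23, 30.19 and 30.59 CPM in KO (-0.53, adjusted p = 0.0242). Ipo9, an importin that carries proteasomes into the nucleus, rose (0.80, adjusted p = 0.0395), and Nfe2l2 (-0.21, adjusted p = 0.485) did not pass.

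Genes of ubiquitin supply and of substrate delivery were mixed. Rps27a, which encodes ubiquitin fused to a ribosomal protein, was at 198.3 to 530.1 CPM in female WT and 42.51 to 204.8 CPM in female KO, so the groups overlapped, and it fell (-1.82, adjusted p = 0.0323). It has near-identical processed copies in the genome to which reads could be split, so its values are uncertain. Uba6, a ubiquitin-activating enzyme, fell too (-0.73, adjusted p = 0.0407), and the polyubiquitin gene Ubb did not pass (-0.08). Of 10 shuttle factors and partners of the p97 ATPase 2 rose and 0 fell, where 17.7% of all genes rose and 18.8% fell. They were Nploc4 (0.78, adjusted p = 0.0427) and Ubqln2 (0.71, adjusted p = 0.0455), and both were negative, at -0.34 and -0.21, with the length slope in the model. Of the called genes of these lists that were refitted, up to 3 a list, none passed without female WT replicate 2 or without female KO replicate 2; Psmg4 and Ipo9 were not among them. In males 0 genes of these lists passed by edgeR.

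**Figure D5:**
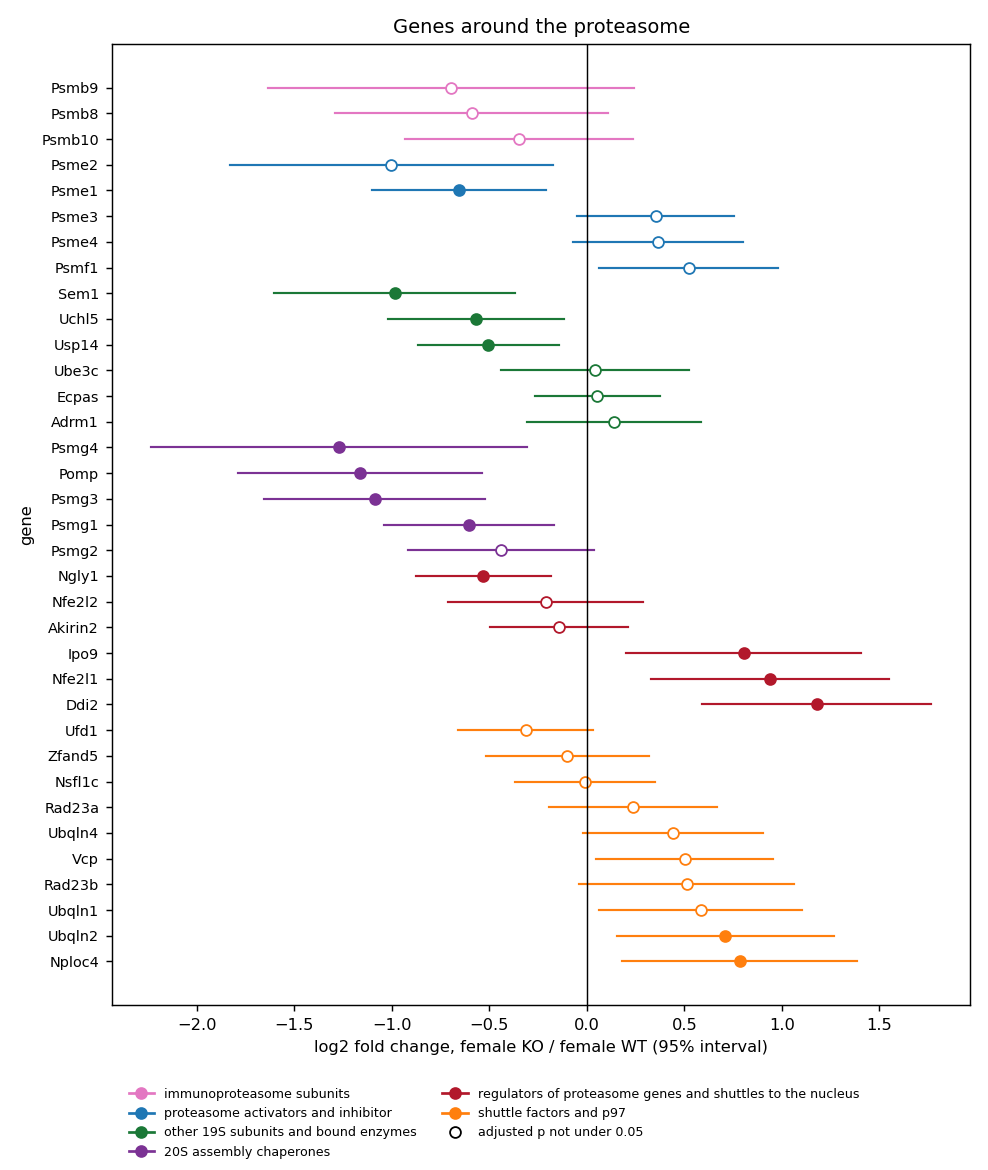
Log2 fold change of female KO against female WT with its 95% interval for genes of 6 lists around the proteasome (vertical axis, coloured by list); filled points passed an adjusted p under 0.05. The 20S assembly chaperones lie to the left of 0, while Ddi2 (1.18), Nfe2l1 (0.94) and Ipo9 (0.80) lie to the right.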

How the data were processed

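RNA was measured in 12 bulk liver libraries of 4 groups with 3 biological replicates each. The deposited table holds raw read counts per gene. Per the submitters' processing notes, the authors aligned reads with HISAT2 2.0.5 to mm39 and used DESeq2. The sources used here name no counting program and no strand setting. Genes on opposite strands that overlap therefore cannot be told apart.

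The counts as deposited were tested with edgeR 4.0.16 (R 4.3.3): TMM scaling, filterByExpr by group, 1 mean per group over all 12 libraries, quasi-likelihood tests and Benjamini-Hochberg adjustment over the 14003 genes tested, with a threshold of 0.05. This names the tool behind every p-value. Standard errors are approximate, each being the fold change (log2) divided by the root of its F statistic. CPM are counts scaled by TMM library size. Totals per library ran from 15167730 to 25082532 counts. A knockout effect was tested in each sex, as the mean over the sexes and as their difference, and males were compared with females within each genotype.

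The alternatives were DESeq2 1.42.0, RLE scaling, no filter on low counts, a replicate block, each library's slope on gene length as a covariate, a gene length trend removed by an offset, the compared libraries alone, and each library left out. Trends on gene length with GC content and on coding length were added after seeing the data. The scripts were tested on simulated data. Same-numbered replicates did not deviate together (correlations from -0.613 to 0.277), so the numbers were not used as pairs.

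Values are given for the members with the 2 smallest p-values of each class in each contrast, the 3 catalytic subunits, members whose sign went against most, and up to 3 genes of each pathway list; genes outside that rule were named after their values were seen, because few were called. The members and lists were chosen with earlier results of these data known. Promoter windows and motif counts used RefSeq (GRCm38.p6), and coding lengths GENCODE M21. Some genes of the marker and pathway lists are not reported here.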

Additional observations from a re-analysis of the deposited data

How the results depend on the processing

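With 3 libraries a group, 1 library can decide the calls. In females the 28 called members ranged from 0 to 29 when each library was left out. The count was 0 with the length slope of each library in the model and 15 with the length and GC trends removed, and lay between 22 and 29 under the other settings. The slopes of the female groups did not overlap. For the mean effect the 24 called members ranged from 0 to 28 with a library left out, and were 0 with the length slope, 8 with the length and GC trends removed, 13 with the coding length trend removed and 16 with the length trend removed. The sex difference gave 9 without the filter on low counts, and 0 in all other fits. Male against female KO gave 7 without that filter, 4 with DESeq2, 1 with the length trend removed, 1 with the length and GC trends removed, and 0 to 4 with a library left out. The counts for males KO against WT and for WT males against females stayed at 0 in every fit. For most of these fits the share of all genes called is not given here, so the counts describe the members only. The causes were not tested.

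The replicate block left 24 members called in females and 0 in the mean effect, and 0 in the other contrasts as without it; the numbers do not pair the samples.

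A called value changed sign in 13 of 3143 refits of single genes, all in the female contrast, and 116 refits changed sign with no call in either fit. With the length slope in the model Psmd10 was at 0.225, Psme1 at 0.026, Sem1 at 0.062, Uchl5 at 0.028, Pomp at 0.012, Psmg1 at 0.064, Nfe2l1 at -0.162, Nploc4 at -0.339 and Ubqln2 at -0.21. With the length trend removed Psmg1 was at 0.071; with the length and GC trends removed Psmg1 was at 0.1 and Uchl5 at 0.366; with the coding length trend removed Sem1 was at 0.195. Calls were lost without a change of sign in 328 refits and gained in 77.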
